A study of Mus musculus with 6 samples.

Results

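The core circadian clock loop was examined in atrial tissue of mice fed a high-fat diet (HFD) or a control chow. Its 10 members were taken by gene name from the 43432 genes of the table: the activators Arntl, Clock and Npas2, the repressors Per1, Per2, Per3, Cry1 and Cry2, and the REV-ERB receptors Nr1d1 and Nr1d2. All 10 were found, and all 10 passed the filter, an average of 10 or more normalized counts over the 6 samples, which left 15275 genes to test. The study asked how obesity changes gene expression in the atria. Wild-type mice, with the strain labelled C57/Bl6J, started on the HFD or the control chow at 6 weeks of age and stayed on it for 10 weeks, and RNA from right and left atria was sequenced in 3 HFD and 3 control samples, numbered 1 to 3 in each group. Each sample is called a mouse here, although the labels do not say whether atria of several animals were pooled, and without such a statement the p-values measure the spread between these samples. The groups follow the titles of the samples, which match the names of the columns, whereas the entry for treatment in the labels names the other diet in each of the 6 samples. The clock time of tissue collection and the light schedule are not given in the sources used here. If the time differed between the groups, its effect on rhythmic genes could not be told apart from that of the diet.

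The libraries held between 15874251 and 28971508 reads on genes. Control mouse 2 was the deepest and had 30.7% of its reads on mitochondrial genes, where the remaining 5 samples had 19.5% to 24.4%. The clock members took between 0.0296% and 0.0409% of a library, and no member had fewer than 141 reads in any mouse, far above the 3 reads taken as the limit of detection. In bulk tissue, fewer cells of a type and less RNA per cell cannot be told apart.

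The circadian clock is a feedback loop of transcription that runs with a period of about a day in nearly every cell, heart muscle included. BMAL1, the product of Arntl, pairs with CLOCK or its paralog NPAS2 and binds E-box sequences, where it switches on the Per and Cry genes. The PER and CRY proteins return to the nucleus and inhibit the activators. In a second loop the REV-ERB receptors, themselves switched on through E-boxes, repress Arntl at ROR elements, so that Arntl and its targets rise and fall at opposite times of day, and the D-box factors Dbp, Tef and Hlf drive a further set of genes that includes Per3.

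Some of the promoters carry the letters that this wiring uses, and they are shown for 5 of the 6 members with such a match. The sequences are those of RefSeq on GRCm38.p6, in windows of 250 bases before to 50 bases after each annotated start, and 9 of the 10 members had a window (13 windows in all, as Arntl, Clock and Per1 have several starts), with none for Per2. The motifs searched on both strands were the E-box CACGTG, its variant CACGTT, the D-box as TTATGTAA or TTACGTAA, and the core of the ROR element as TAGGTCA or GGGTCA. No motif match overlapped another. The 250 bases before the start are printed below for Per3, Cry1, Per1 and Nr1d1, with matches in capitals.
Per3 (chr4:151044666-151044915, minus strand): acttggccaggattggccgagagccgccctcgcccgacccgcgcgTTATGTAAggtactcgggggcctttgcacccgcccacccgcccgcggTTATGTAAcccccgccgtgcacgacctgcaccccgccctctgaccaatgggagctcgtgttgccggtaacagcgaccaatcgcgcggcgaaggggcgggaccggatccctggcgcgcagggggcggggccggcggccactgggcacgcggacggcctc
Cry1 (chr10:85185055-85185304, minus strand): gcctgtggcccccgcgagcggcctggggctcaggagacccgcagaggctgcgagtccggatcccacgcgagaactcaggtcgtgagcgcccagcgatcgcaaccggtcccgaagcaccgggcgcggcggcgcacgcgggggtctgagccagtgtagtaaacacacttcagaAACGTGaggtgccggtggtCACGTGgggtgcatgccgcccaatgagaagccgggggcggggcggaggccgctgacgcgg
Per1 (chr11:69098699-69098948, plus strand): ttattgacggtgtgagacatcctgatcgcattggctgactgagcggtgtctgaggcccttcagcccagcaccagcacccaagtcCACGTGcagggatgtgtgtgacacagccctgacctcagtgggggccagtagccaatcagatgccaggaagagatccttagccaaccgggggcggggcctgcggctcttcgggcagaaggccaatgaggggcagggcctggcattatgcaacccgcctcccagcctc
Nr1d1 (chr11:98775378-98775627, minus strand): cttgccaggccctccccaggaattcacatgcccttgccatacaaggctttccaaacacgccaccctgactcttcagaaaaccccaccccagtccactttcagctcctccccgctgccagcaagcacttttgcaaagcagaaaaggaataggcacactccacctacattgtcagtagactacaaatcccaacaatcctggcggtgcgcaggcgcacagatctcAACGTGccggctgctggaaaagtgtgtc
The Per3 window held TTATGTAA at 2 places, 205 and 158 bases before the start. Among all 32851 promoter windows, 0.938% held these letters. The Cry1 window held CACGTG 60 bases and the variant 79 bases before the start, and the first of the Per1 windows held CACGTG 166 bases before it. CACGTG was found in 7.15% and CACGTT in 4.68% of all windows. The variant also lay 28 bases before the start of Nr1d1 and 166 bases before that of Cry2. The only match to either ROR core searched lay within the transcribed part of Arntl, 31 bases after the more downstream of its annotated starts. It is shown with its surroundings.
Arntl (chr7:113207529-113207558, plus strand): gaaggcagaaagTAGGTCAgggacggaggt
TAGGTCA was found in 2.61% of all windows. TTACGTAA, present in 0.119% of all windows, and GGGTCA, present in 13.7%, had no match in the members' windows. The windows of Npas2, Clock and Nr1d2 held none of the motifs searched. These matches describe the letters and were not tested as binding sites.

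No clock member passed the threshold of an adjusted p under 0.05 (limma, Benjamini-Hochberg over all 15275 genes), where 0.746% of all genes did (0.484% higher and 0.262% lower in HFD). At an unadjusted p under 0.05 there were 3 of 10 members, Arntl and Npas2 higher and Per3 lower in HFD atria, against 12.2% of all genes (6.66% higher and 5.55% lower). The same 3 members were those whose 3 HFD values all lay on one side of the 3 control values, against 18.0% of all genes (8.86% higher and 9.17% lower). The edgeR quasi-likelihood test on the recovered reads called 0 members with either normalization, and the DESeq2 Wald test on the same reads called 2, Arntl (adjusted p = 0.00743) and Per3 (adjusted p = 0.0216), where it called 2.76% of the 16054 genes it tested. The median log2 difference of the 10 members was 0.20, with 8 above and 2 below 0. Of all 15275 genes tested, 7761 were above and 7514 below 0, with a median of 0.0049. Without HFD mouse 3, Cry1 and Nr1d1 fell below 0 and Nr1d2 rose above it.

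**Figure D1:**
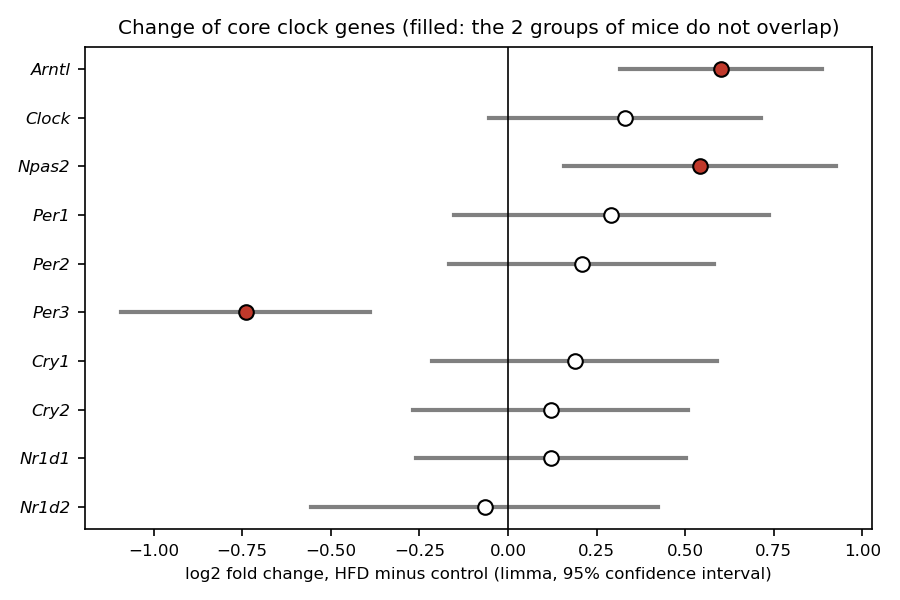
Log2 difference of each clock member (HFD minus control, horizontal axis) with its 95% confidence interval from limma (gray bars, n = 3 in each group); filled circles mark the members whose groups of mice did not overlap. The intervals of Arntl (0.32 to 0.89), Npas2 (0.16 to 0.93) and Per3 (-1.09 to -0.39) lie away from 0, and those of the other 7 members include it.

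Among the activators, Arntl stood highest against its spread. Arntl (ENSMUSG00000055116, chromosome 7, 113207465 to 113314122 on GRCm38, plus strand) encodes BMAL1, the clock protein without a full substitute. It had 910.1, 736 and 802 normalized counts in HFD mice 1, 2 and 3 and 518, 508 and 581 in control mice 1, 2 and 3. The lowest HFD mouse was above the highest control mouse. The mean levels were 816 ± 87.8 and 536 ± 39.6 (SD, n = 3 each), 1.52-fold apart on the fitted scale. The log2 difference was 0.60 (standard error 0.13, limma adjusted p = 0.067, unadjusted p = 0.00078), and an exact permutation test, two-sided, gave p = 0.1, the smallest that 3 against 3 allow. Leaving out any single mouse kept it between 0.52 and 0.67.

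Npas2 (ENSMUSG00000026077, chromosome 1, 39193731 to 39363236, plus strand) encodes a partner of BMAL1 that can stand in for CLOCK. Its normalized counts were 259, 245 and 326 in HFD mice and 178, 172 and 218 in control mice, without overlap. HFD mouse 3 was the highest of all, and control mouse 3 the highest of its group. The means of 277 ± 43.3 and 189 ± 24.6 (SD, n = 3 each) gave a log2 difference of 0.54 (standard error 0.17, limma adjusted p = 0.217).

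Clock (ENSMUSG00000029238, chromosome 5, 76212177 to 76304548, minus strand) encodes the usual partner of BMAL1, a histone acetyltransferase. It had 639.9, 807 and 670.1 normalized counts in HFD mice and 464, 522 and 718 in control mice. Control mouse 3 lay inside the HFD range, so the groups overlapped. The log2 difference was 0.33 (95% confidence interval -0.05 to 0.71, limma adjusted p = 0.492), and it was 0.51 without control mouse 3 and 0.20 without control mouse 1. The ratio of Npas2 to Clock within a mouse was 0.303 to 0.486 in HFD and 0.303 to 0.384 in control mice, with overlap.

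**Figure D2:**
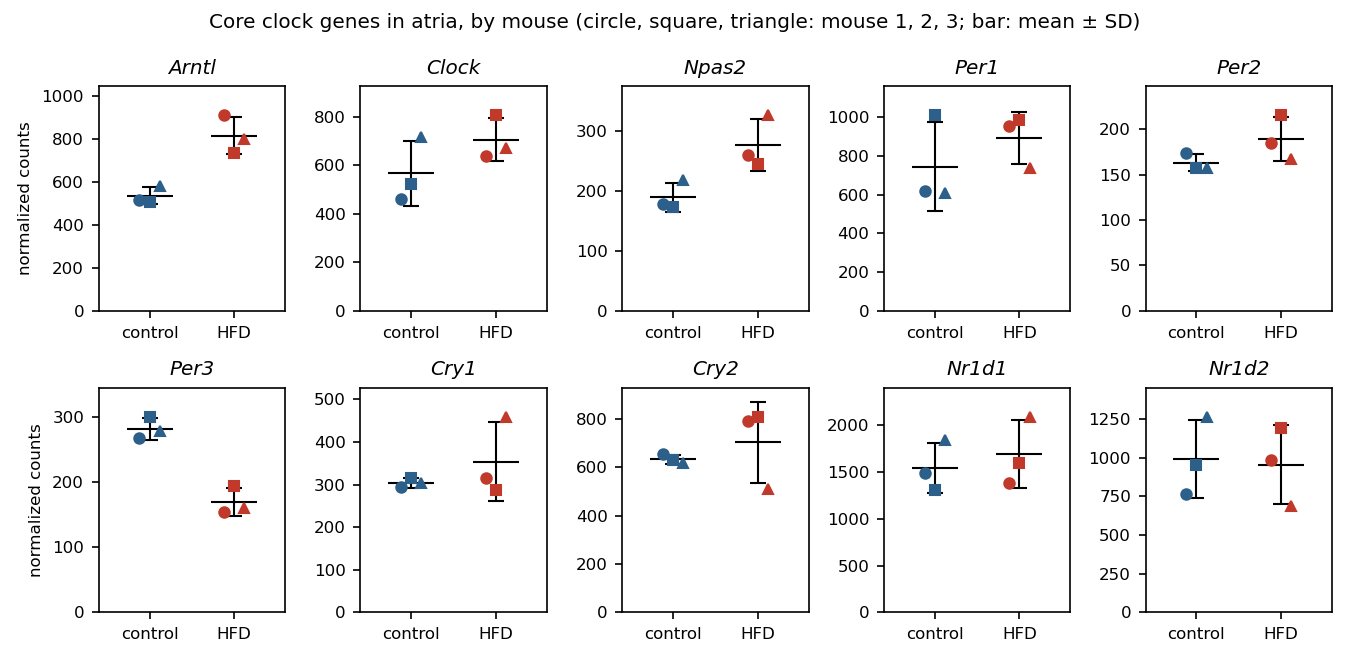
Normalized counts (vertical axis, from 0) of each clock member in the 3 control (blue) and 3 HFD (red) mice; circles, squares and triangles are mice 1, 2 and 3, and bars are the mean ± SD. The groups are apart for Arntl, Npas2 and Per3, and HFD mouse 3 lies away from the other HFD mice for Cry1 and Cry2.

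Of the period genes, Per3 differed from Per1 and Per2 in direction. Per3 (ENSMUSG00000028957, chromosome 4, 151003652 to 151044665, minus strand) encodes a period protein that the loop can run without. It had 154, 194 and 160.2 normalized counts in HFD mice and 268, 300.4 and 279 in control mice. Every HFD mouse was below every control mouse. The mean levels were 169 ± 21.5 and 282 ± 16.7 (SD, n = 3 each), 1.67-fold lower in HFD on the fitted scale. The log2 difference was -0.74 (standard error 0.16, limma adjusted p = 0.0675, unadjusted p = 0.000806), and an exact permutation test, two-sided, gave p = 0.1. Leaving out any single mouse kept it between -0.84 and -0.68.

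Per1 (ENSMUSG00000020893, chromosome 11, 69095217 to 69109960, plus strand), a repressor that also responds to glucocorticoids and to cAMP, had 956, 986 and 739 normalized counts in HFD mice. In control mice it had 618, 1010.1 and 609. Control mouse 2 was thus the highest of all 6, while the other 2 control mice were the lowest. The log2 difference was 0.29 (95% confidence interval -0.15 to 0.74, limma adjusted p = 0.618). It was 0.53 without control mouse 2, 0.17 without control mouse 3 and 0.18 without control mouse 1.

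Per2 (ENSMUSG00000055866, chromosome 1, 91415982 to 91459324, minus strand), the period gene whose loss most disturbs rhythms in mice, had 185, 215 and 167 normalized counts in HFD and 174, 157 and 157 in control mice. HFD mouse 3 was the one that overlapped the control range. The log2 difference was 0.21 (95% confidence interval -0.17 to 0.58, limma adjusted p = 0.679), and without HFD mouse 2 it was 0.11. The ratio of Per1 to Per2 within a mouse ran from 4.43 to 5.17 in HFD and from 3.56 to 6.42 in control mice.

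The cryptochromes bind the activators most directly and block them. Cry1 (ENSMUSG00000020038, chromosome 10, 85131702 to 85185054, minus strand) had 315, 287 and 459 normalized counts in HFD and 293, 316 and 303 in control mice. HFD mouse 3 stood above all others, while HFD mouse 2 was the lowest of all 6 and HFD mouse 1 lay inside the control range. Cry2 (ENSMUSG00000068742, chromosome 2, 92403646 to 92434043, minus strand) had 793, 809 and 509 in HFD and 654, 628 and 618 in control mice. Here HFD mouse 3 was the lowest of all and the other HFD mice the highest. The control mice were close together for both genes, with means of 304 ± 11.1 for Cry1 and 633 ± 18.7 for Cry2 (SD, n = 3), while the HFD means were 354 ± 92.3 and 703 ± 169 (SD, n = 3). The log2 differences were 0.19 for Cry1 (95% confidence interval -0.22 to 0.59, limma adjusted p = 0.737) and 0.12 for Cry2 (-0.27 to 0.51, limma adjusted p = 0.839). Cry1 had a log2 difference of -0.01 without HFD mouse 3 and of 0.32 without HFD mouse 2. Cry2 had one of 0.34 without HFD mouse 3, of 0.019 without HFD mouse 1 and of 0.0046 without HFD mouse 2.

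The REV-ERB receptors, the heme-binding repressors of Arntl, had overlapping groups. Nr1d1 (ENSMUSG00000020889, chromosome 11, 98767932 to 98775333, minus strand) had 1378, 1596 and 2085 normalized counts in HFD and 1489, 1306 and 1834 in control mice. Nr1d2 (ENSMUSG00000021775, chromosome 14, 18204054 to 18239127, minus strand) had 982, 1193 and 686 in HFD and 765, 954 and 1264 in control mice. Control mouse 3 was the highest of all for Nr1d2 and HFD mouse 3 for Nr1d1. The log2 differences were 0.12 for Nr1d1 (95% confidence interval -0.26 to 0.50, limma adjusted p = 0.835) and -0.07 for Nr1d2 (-0.56 to 0.42, limma adjusted p = 0.942). Both intervals overlap that of Arntl (0.32 to 0.89), and the differences of these genes were not compared by a test. Equal levels between the diets were not shown. With single mice left out, the values ran from -0.04 (without HFD mouse 3) to 0.26 (without HFD mouse 1) for Nr1d1, and from -0.25 (without HFD mouse 2) to 0.15 (without HFD mouse 3) for Nr1d2.

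**Figure D3:**
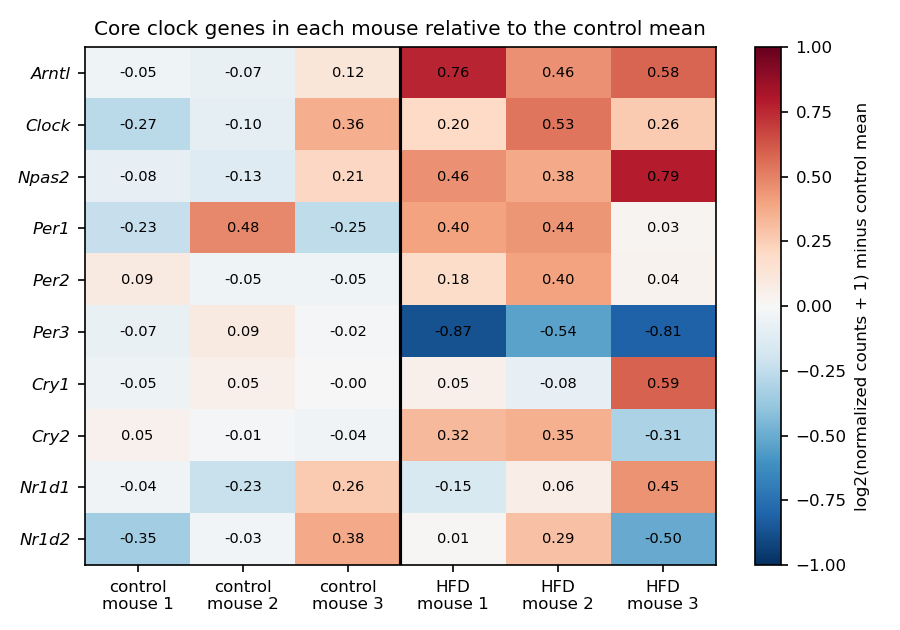
Log2(normalized counts + 1) of each clock member in each mouse minus the mean of the 3 control mice (rows: genes; columns: mice; red above and blue below the control mean). Arntl and Npas2 are above and Per3 is below the control mean in all 3 HFD mice, while Cry2 and Nr1d2 are below it and Cry1 and Nr1d1 above it in HFD mouse 3.

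The members varied within the diets as well as between them. HFD mouse 3 deviated most from its group, by 0.287 on the log2 scale as the root mean square over the 10 members, against 0.148 to 0.216 in the other 5 mice. Over all genes tested it was also the mouse farthest from its group mean, at 0.410 against 0.345 to 0.379. In HFD mouse 3, Cry1 was 0.41, Nr1d1 0.33 and Npas2 0.25 above the HFD mean on the log2 scale. Nr1d2 was lower than that mean by a difference of -0.44, Cry2 by one of -0.44 and Per1 by one of -0.26. Arntl (-0.02) and Per3 (-0.07) were close to it. Without HFD mouse 3, 5 members had groups that did not overlap, Per2 and Cry2 in addition to the 3 above, but 32.1% of all genes then did so (15.7% higher). The median residual SD of the members was 0.259 on the log2 scale, against 0.224 for all genes tested and 0.184 for those averaging 100 or more normalized counts. Nr1d2 and Per1 had the widest spread of the members (0.384 and 0.335) and Arntl, Per3 and Per2 the narrowest (0.131, 0.139 and 0.142).

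Within a mouse, the ratio of 2 genes does not depend on the library size. The ratio of Arntl to Per3 was 5.92, 3.80 and 5.01 in HFD mice 1, 2 and 3 and 1.94, 1.69 and 2.09 in control mice 1, 2 and 3. Every HFD mouse was above every control mouse, which follows from the groups of Arntl and of Per3, each without overlap, and is no further result. The ratio of Arntl to Nr1d1, a gene and its repressor, was 0.660, 0.461 and 0.385 in HFD and 0.348, 0.389 and 0.317 in control mice, so that HFD mouse 3 overlapped the control mice. The ratio of Cry1 to Cry2 was 0.398, 0.354 and 0.902 in HFD and 0.449, 0.502 and 0.490 in control mice. HFD mice 1 and 2 were below all control mice in this ratio, and HFD mouse 3 was above all of them. These ratios are descriptions with no test.

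**Figure D4:**
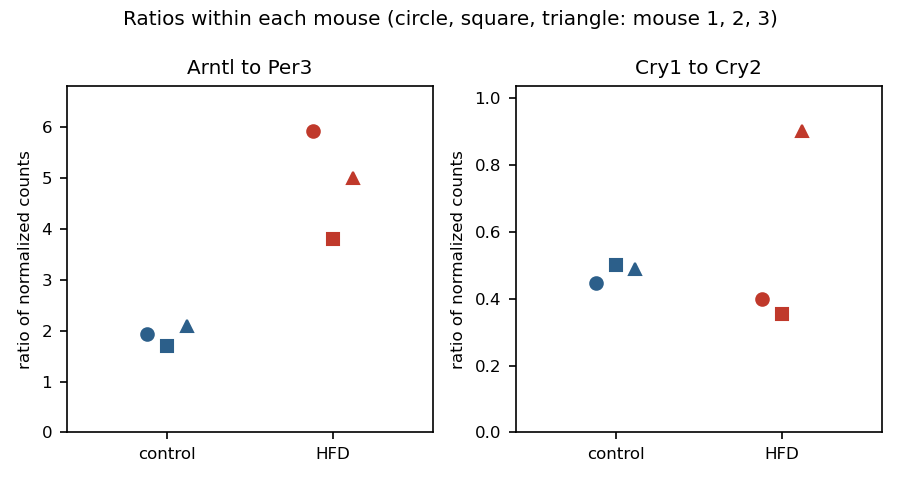
Ratio of normalized counts of Arntl to Per3 (left) and of Cry1 to Cry2 (right) in each mouse (vertical axes from 0; blue: control, red: HFD; circles, squares and triangles are mice 1, 2 and 3). The Arntl to Per3 ratio is 3.80 to 5.92 in HFD and 1.69 to 2.09 in control mice, and the Cry1 to Cry2 ratio of HFD mouse 3 is 0.902.

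Per kilobase of annotated exon, the members spanned a wide range of levels. Nr1d1 was highest, with 424 to 678 normalized counts per kilobase over the 6 mice, above the range of every other member. Nr1d2 followed with 127 to 234, Per1 with 108 to 179, Cry2 with 80.5 to 128, Cry1 with 85.8 to 137 and Arntl with 67.6 to 121. Npas2 (36.0 to 68.0) and Clock (33.8 to 58.8) came next, and Per2 (26.9 to 36.7) and Per3 (16.0 to 31.3) were lowest. Each member after Nr1d1 overlapped its neighbour in this order. The exon length is the union over all annotated transcripts, so a gene with long rare transcripts appears lower than it is. Per3 was below Per2 in all 3 HFD mice, with 16.0 to 20.2 against 28.5 to 36.7, while in control mice the ranges were 27.9 to 31.3 for Per3 and 26.9 to 29.6 for Per2.

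**Figure D5:**
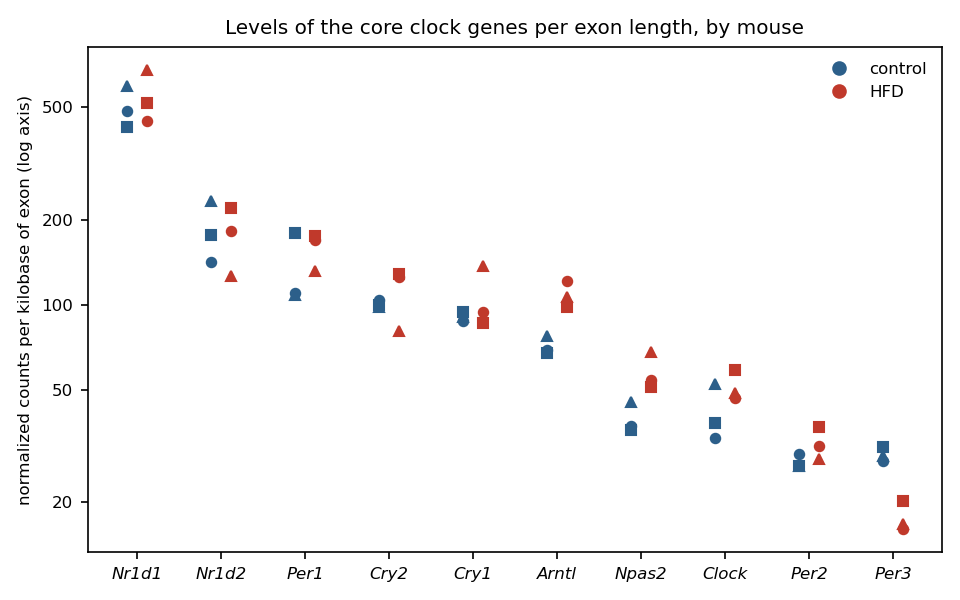
Normalized counts per kilobase of annotated exon (vertical log axis) of the clock members in each mouse, in the order of their mean over the 6 mice; blue is control, red is HFD, and circles, squares and triangles are mice 1, 2 and 3. Nr1d1 is above the range of every other member (424 to 678), and Per3 in HFD mice is lowest (16.0 to 20.2).

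Across the 6 mice, Per3 ran opposite to Arntl (Pearson r = -0.97 on the log2 scale) and Npas2 alongside it (r = 0.88), while Nr1d1 (r = 0.26) and Nr1d2 (r = -0.04) did not follow it closely. Cry1 and Cry2 ran opposite to each other (r = -0.75), with HFD mouse 3 the highest of all for Cry1 and the lowest for Cry2. The value without that mouse was not computed. The 6 points of each r share the diet groups, and so few mice give high values to many genes. Among the 15275 genes, 47 had r over 0.95 with Arntl and 55 had r under -0.95. The 5 genes most like Arntl were Fmn1, Ptp4a1, Cep95, Spef1 and Rbm5, with r from 0.979 to 0.991. The 5 most opposite were Pym1, Cilp2, Nos2, Nlrx1 and Hist2h2be, with r from -0.998 to -0.986.

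Further clock regulators were taken from a list of 31 genes, the nuclear receptors, kinases, ligases and cofactors that set the speed and amplitude of the loop, of which 29 could be tested. None passed the threshold (limma, adjusted p under 0.05). At an unadjusted p under 0.05 there were 3 higher and 0 lower, where 6.66% of all genes were higher and 5.55% lower, and the median log2 difference was 0.06. Nfil3, the repressor that competes with Dbp for D-boxes, had 565, 388 and 595 normalized counts in HFD and 328, 305 and 273 in control mice, without overlap. Its log2 difference was 0.75 (limma adjusted p = 0.0899). Nfil3 passed the threshold in 1 of the 10 alternatives other than leaving out a mouse, and in 0 of the 6 fits without a mouse. The BMAL1 paralog Arntl2 (0.53), the E-box competitor Bhlhe41 (-0.36) and the casein kinase 2 subunit Csnk2a2 (0.35) had the next log2 differences by size, and that of Bhlhe41 was -0.22 without HFD mouse 1.

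Of 12 genes listed as clock output, 11 could be tested, and 2 were past the threshold, both lower in HFD, where 0.262% of all genes were. At an unadjusted p under 0.05 there were 1 higher and 5 lower, against 6.66% and 5.55% of all genes. The lists share some genes, and the 1 higher here is counted again among the glucocorticoid responsive genes below. The D-box activator Dbp fell from 499, 547 and 491 normalized counts in control to 171, 241 and 154 in HFD mice, a log2 difference of -1.46 (standard error 0.18, limma adjusted p = 0.00937). The cold-inducible RNA-binding protein gene Rbm3 fell from 1524, 1665 and 1825 to 853, 809.7 and 896, a log2 difference of -0.97 (limma adjusted p = 0.0090). Hlf had a log2 difference of -0.83 (limma adjusted p = 0.0616). It passed the threshold in 2 of the 10 alternatives other than leaving out a mouse, and in 1 of the 6 fits without a mouse. Lonrf3, at 4.48 to 34.7 normalized counts, had a log2 difference of 0.99 (limma adjusted p = 0.576), and of 0.46 without control mouse 1. Tef, the D-box activator related to Dbp and Hlf, had 958, 1248 and 771 normalized counts in HFD and 1617, 1624 and 1692 in control mice, without overlap. Its log2 difference was -0.76 (limma adjusted p = 0.0668). Over this list the median was -0.16. Both calls were lost without a variance trend (limma adjusted p = 0.123 for each) and without control mouse 2 (0.0613 for Dbp and 0.0597 for Rbm3), and that of Dbp also without control mouse 3 (0.0523).

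Of 8 heart genes that have been described as clock controlled, none passed the threshold in the main fit. At an unadjusted p under 0.05 there were 1 higher and 3 lower (6.66% and 5.55% of all genes). The median log2 difference was -0.07. Klf15, Kcnip2 and Tcap each passed the threshold in 1 of the 10 alternatives other than leaving out a mouse, and Kcnh2 in 0. Klf15 and Kcnip2 each also passed it in 1 of the 6 fits without a mouse, and Tcap and Kcnh2 in 0. Klf15, a regulator of metabolism and repolarization, had a log2 difference of 0.71 (limma adjusted p = 0.129). Its target Kcnip2, the subunit of the transient outward potassium channel, had 417, 482 and 519 normalized counts in HFD and 649, 872 and 689.7 in control mice, a log2 difference of -0.63 (limma adjusted p = 0.0886). Those mice did not overlap. The sarcomere gene Tcap had -0.63 (limma adjusted p = 0.134) and the potassium channel gene Kcnh2 -0.34 (limma adjusted p = 0.25).

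Glucocorticoids act on Per1 and on other clock genes, and a list of 9 genes that respond to them was examined. It was chosen with earlier results of these data known, so its counts only describe these genes. All 9 were tested, all 9 had higher fitted levels in HFD with an unadjusted p under 0.05 (6.66% of all genes), and 3 passed the threshold (0.484% of all genes), Mt2, Pdk4 and Cdkn1a, with log2 differences of 2.74, 3.15 and 2.32. Zbtb16 had 1.64 (limma adjusted p = 0.101), with 2632 normalized counts in HFD mouse 2 against 666 and 826 in the other HFD mice. Without HFD mouse 2 it had 1.03. Zbtb16 passed the threshold in 1 of the 10 alternatives other than leaving out a mouse, and in 1 of the 6 fits without a mouse. The median of this list was 1.497, and without a variance trend none of the 3 passed the threshold (limma adjusted p from 0.0562 to 0.0854). The part of glucocorticoid response in the clock values was not tested.

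The tissue was checked against markers of the cell types it could hold. Of 41 marker genes 34 could be tested, and 3 were past the threshold, Ucp1 and Cidea of brown adipocytes higher and Sbk2 of atrial myocytes lower in HFD. The summed level of the 3 brown adipocyte markers was 444 to 1139 normalized counts in HFD and 145 to 269.8 in control mice, and 1 of them, Elovl3, was at 0 in control mice 2 and 3. The 6 atrial myocyte markers summed to between 287590.2 and 520943 in HFD and between 445759 and 485424 in control mice. Of these markers, 1 was higher and 5 lower in HFD, with a median log2 difference of -0.42. At an unadjusted p under 0.05, 0 were higher and 3 lower (6.66% and 5.55% of all genes). Nppa, the largest part of the sum, had 171702, 179008 and 333975 in HFD mice and 263703 to 305627 in control mice. Myl7 had 31186, 27168 and 58765 in HFD and 56346 to 60190 in control mice. The 4 ventricular markers summed to between 4326 and 6415 in HFD and between 4262 and 13770.5 in control mice. The 5 white adipocyte markers summed to between 1061 and 3009.7 in HFD and between 482 and 2217 in control mice. The sums of the 4 endothelial markers were 11973 to 13633 in HFD and 9821 to 10699.7 in control mice, those of the 4 macrophage markers 3923 to 4389.9 and 3126 to 4113, and those of the 4 fibroblast markers 24406 to 27394 and 25194 to 29858. The 3 smooth muscle markers summed to 4589 to 5328 in HFD and 2619 to 5033 in control mice. The 4 lymphocyte markers, at 15.3 to 59.1 and 23.3 to 38.1, were too low to test. Among the endothelial markers Pecam1 had a log2 difference of 0.57 (limma adjusted p = 0.0504), and Cdh5 (0.04), Kdr (0.14) and Tek (0.18) overlapped between the groups. Dbh, the noradrenaline-synthesis gene among the markers of cardiac ganglion neurons, had 57.3, 77.5 and 149 normalized counts in HFD and 241, 168 and 272 in control mice, without overlap. Its log2 difference was -1.34 (limma adjusted p = 0.0985). Besides Elovl3, Nkg7 was at 0 in HFD mouse 2 and Chat in control mouse 3. The part of these cell types in the clock values was not tested.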

How the data were processed

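RNA of right and left atria of 3 HFD and 3 control samples was sequenced as single-end reads from a directional library. Reads were mapped by the authors to GRCm38 with STAR, and uniquely mapped reads were assigned to Ensembl genes with Salmon. For each sample the authors deposited a normalized signal, meaning reads on a gene over the size factor of DESeq2 for that library. Their table further holds log2 fold changes, p-values and scores from a DESeq2 comparison, deposited by the authors and left unused here. Whether strand was used in counting is not given in the sources used here, so overlapping, antisense and near-identical genes are uncertain.

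Gene names stand in capitals in the table, so members were matched ignoring case, which gave the same 10 genes as their Ensembl identifiers. GENCODE names matched 42462 of 43432 identifiers (97.8%), and 1 row naming no gene was left out. Dividing by the smallest positive value of a sample turned 100% of values into whole reads (tolerance 0.01), which served the count tests. Detection limits of 3 reads cover counting error only.

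The diets were compared with limma 3.58.1 (R 4.3.3, lmFit, eBayes with trend). Values were log2(normalized count + 1), only genes averaging 10 or more were kept, and p-values were adjusted by Benjamini-Hochberg with a threshold of 0.05. Log2 differences are HFD minus control on this scale, and low genes appear to change less than they do. The script was tested on simulated data. Alternatives were quantile normalization, no variance trend, no filter, a filter in every sample, no mitochondrial genes, a pseudocount of 0.1, a replicate block, each mouse left out, and edgeR 4.0.16 (TMM and RLE) or DESeq2 1.42.0 on the recovered reads. All 10 members are named, and from each other list the genes past the threshold, filled up to 4 by the size of the log2 difference. Tef, Dbh, Nppa, Myl7, the endothelial markers and the markers at 0 were named after their values were seen. Some listed genes are not reported here. The members and lists were chosen with earlier results of these data known.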

Additional observations from a re-analysis of the deposited data

How the results depend on the processing

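The 3 members Arntl, Npas2 and Per3 kept their direction and an unadjusted p under 0.05 in all 10 alternatives other than leaving out a mouse and in all 6 fits without a mouse. The count of members past the threshold was 0 in limma and edgeR under every setting and 2 with DESeq2, and 3 at an unadjusted p under 0.05. The number of all genes past the threshold was 114, and it was 0 without a variance trend (1717 at an unadjusted p under 0.05), 443 with DESeq2 and 1864 at an unadjusted p under 0.05. With each mouse left out in turn this number ran from 14 (without control mouse 2) to 342 (without HFD mouse 3), and the members past the threshold stayed at 0. The members without overlap ran from 3 to 5, with 5 when HFD mouse 3 was left out. The share of all genes without overlap was then 32.1%, against 18.0% with all mice. That share was not computed for the other fits without a mouse. Without HFD mouse 3 the log2 differences of Cry1 (-0.015), Nr1d1 (-0.043) and Nr1d2 (0.15) changed sign, as did that of Nr1d2 without control mouse 3 (0.12). Over the 6 fits that each leave out a mouse, the log2 difference ran from -0.015 to 0.32 for Cry1, from -0.043 to 0.26 for Nr1d1 and from -0.25 to 0.15 for Nr1d2. The cause was not tested. With the replicate number as a block, 0 members and 157 genes passed the threshold. The numbers only name the samples: deviations of same-numbered samples correlated at 0.12, -0.03 and -0.00, and not every sample correlated best with its own number. Among the output genes, Dbp passed the threshold in 4 and Rbm3 in 5 of these fits. With 3 mice in each group, differences the size of those in Clock or Per1 could not be told from the spread.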
